A study of Mus musculus with 16 samples.

Results

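In aged mice, 47 genes that mark macrophages and other leukocytes were followed in quadriceps femoris muscle from 8 ATF4 mKO mice and 8 littermate control mice, with 1 array per mouse. The members came from a list of gene symbols grouped into 9 roles: genes of all leukocytes, of macrophages and monocytes, Fc receptors and their adaptors, complement C1q, chemokines, proteins of phagocytes and matrix, and genes of T cells, B cells and neutrophils. A probe carried the symbol of 43 of the 47, among 16593 genes named on the array. Cd68, Csf1r, Mpeg1 and Spp1 had no probe under those symbols in the annotation used and were not analysed here. All mice were 22-month-old males and carried floxed Atf4 on both alleles. ATF4 mKO mice also carried the MCK-Cre transgene, driven by the muscle creatine kinase promoter, which deletes Atf4 in skeletal muscle fibres and heart, and control mice lacked it. The promoter is not one of leukocytes, so most members were measured in cells that the transgene does not target, in RNA from whole muscle. In such RNA, fewer leukocytes and less RNA per leukocyte cannot be told apart. The question of the comparison was what loss of muscle ATF4, a transcription factor of the amino acid and stress response, did to mRNA levels in old muscle.

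Skeletal muscle holds resident macrophages between its fibres, many with the mannose receptor Mrc1 and the haemoglobin receptor Cd163 on their surface, and after injury monocytes and neutrophils enter from blood. Macrophages take up debris through Fc and scavenger receptors, secrete the complement starter C1q and release chemokines that draw in further leukocytes. Lymphocytes are scarce in healthy muscle. PU.1, the product of Spi1, is the transcription factor on which the identity of macrophages rests, and it binds a purine-rich core in the control regions of many genes below.

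Promoters are shown first. Those of C1qc and S100a8 were chosen because they hold a PU.1 sequence and their genes had a mean signal of 8.5 or more. That of C1qb was added as the neighbour of C1qc. C1qb, without that sequence, followed the macrophage genes between mice, as C1qc did, and S100a8 hardly did. The windows run from 250 bases before to 50 after the RefSeq start of a gene (build GRCm38.p6). Such windows were at hand for 36 of the 47 genes, as 40 promoters, and C1qa was among those without one. The PU.1 sequence GAGGAAGT, searched on both strands, was in 5 of the 40 (12.5%), those of C1qc, Cd53, S100a8, Spp1 and Vav1, and in 3.2% of all 32851 promoters of the table. The core TGATGNAA, at which ATF4 pairs with C/EBP factors, was in 0 of the 40 and in 3.97% of all. Matches are descriptions of these letters and not of binding. Below are C1qc (chr4:136892865-136893164, minus strand), its neighbour C1qb (chr4:136886151-136886450, minus strand) and S100a8 (chr3:90668821-90669120, plus strand), written 5′ to 3′ along the gene. Capitals mark GAGGAAGT, which reads ACTTCCTC here because it lies on the opposite strand, and C1qb holds no match to either sequence.
C1qc: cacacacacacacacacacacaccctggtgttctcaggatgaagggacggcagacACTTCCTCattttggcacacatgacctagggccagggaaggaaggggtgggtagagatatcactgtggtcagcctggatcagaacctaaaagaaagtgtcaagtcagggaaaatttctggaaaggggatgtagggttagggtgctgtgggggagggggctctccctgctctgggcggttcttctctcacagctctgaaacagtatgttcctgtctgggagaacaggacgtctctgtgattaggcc
C1qb: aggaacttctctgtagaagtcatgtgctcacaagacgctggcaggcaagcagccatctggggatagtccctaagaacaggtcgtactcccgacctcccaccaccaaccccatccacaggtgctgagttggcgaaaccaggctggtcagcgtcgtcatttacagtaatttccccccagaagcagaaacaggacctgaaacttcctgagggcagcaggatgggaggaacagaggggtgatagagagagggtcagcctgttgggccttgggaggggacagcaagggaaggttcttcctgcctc
S100a8: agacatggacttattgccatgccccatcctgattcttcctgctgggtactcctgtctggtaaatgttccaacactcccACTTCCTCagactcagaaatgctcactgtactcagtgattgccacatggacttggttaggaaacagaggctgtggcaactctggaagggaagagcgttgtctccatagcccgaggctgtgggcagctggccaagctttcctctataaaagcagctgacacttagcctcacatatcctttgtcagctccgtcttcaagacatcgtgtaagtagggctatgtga

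Signals are log2 values, so a difference of 1 is a doubling on the array's own scale. Every array had a floor near 8.3, the lowest signal being 8.25 and the highest 15.40, and changes close to the floor are compressed. Of the 43 measured members, 16 (37.2%) had a mean over all 16 arrays of 8.5 or more, close to the 38.4% among all named genes. These 16 were Cd52, Coro1a, Laptm5, Cd163, Lyz1, Lyz2, Mrc1, Fcer1g, C1qb, C1qc, Ccl8, Ccl9, Cxcl12, Gpnmb, Lgals3 and S100a8. Defining markers near the floor included Ptprc at 8.32, Itgam at 8.33, Spi1 at 8.35, Cd14 at 8.41 and Adgre1 (F4/80) at 8.46, and all 6 T and B cell genes were below 8.5. Macrophage signal in these muscles was thus read from Mrc1, Cd163, lysozyme, C1q and Fcer1g. Skeletal muscle genes averaged 14.9 in both genotypes. Atf4 itself, the check of the labels, was 8.52 ± 0.05 in ATF4 mKO and 10.45 ± 0.12 in control muscles (SD, n = 8 each), without overlap.

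ATF4 mKO mouse 3 stood apart before any comparison. It was the highest of the 8 ATF4 mKO mice for 15 of the 16 members at 8.5 or more, where the same mouse was highest for 14.4% of all genes at that level. For 10 of the 16 it was also above all 8 control mice, against 12.3% of genes at that level. Its lead over the mean of the other ATF4 mKO mice was 0.97 for Lyz1, 0.94 for Cd52, 0.78 for Lyz2, 0.73 for Laptm5 and 0.68 for Ccl8, but 0.11 for Cd163 and 0.09 for Cxcl12, for which ATF4 mKO mouse 7 was highest. Its mean over the erythroid list was 10.27, also the highest of its genotype. Its fibroblast mean of 9.73 was the highest as well, narrowly above the 9.72 of ATF4 mKO mouse 7. Its Adipoq signal of 10.72 and its adipocyte mean of 8.98 were not the highest, since ATF4 mKO mouse 6 had 10.74 and 9.03. Whether blood, fat, fibroblasts or immune cells in the muscle sample of ATF4 mKO mouse 3 account for its lead was not tested. The counts by genotype below are therefore also given without this mouse.

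No member was called by genotype. None of the 66 member probes passed a limma adjusted p of 0.1, the false discovery rate that the study marks, where 0.136% of 25697 probes passed, and the smallest adjusted p of a member was 0.834. At the study's unadjusted cut-off of 0.025, limma passed 1 of the 66, a probe of Ptprc, where 2.98% of all probes passed. The methods' t-test also passed 1 at that cut-off, where 2.85% of all probes did, and 0 after Benjamini-Hochberg adjustment. In 0 of the 66 did the 2 genotypes fail to overlap, against 0.101% of all probes. Differences are ATF4 mKO minus control throughout. They were below 0 for 28 of 43 members and above 0 for 15, where 48.6% of all genes were below 0. Among the 16 members at 8.5 or more, 14 were below 0, where 47.9% of genes at that level were. Their median difference was −0.05, against 0.0016 for all genes at that level and 0.00047 for all genes. The 95% intervals of the 43 members lay between −0.43 and 0.30, and the widest, that of Lyz1, ran from −0.43 to 0.24, so with 8 mice per genotype the data do not tell a Lyz1 difference inside that range from 0.

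**Figure D1:**
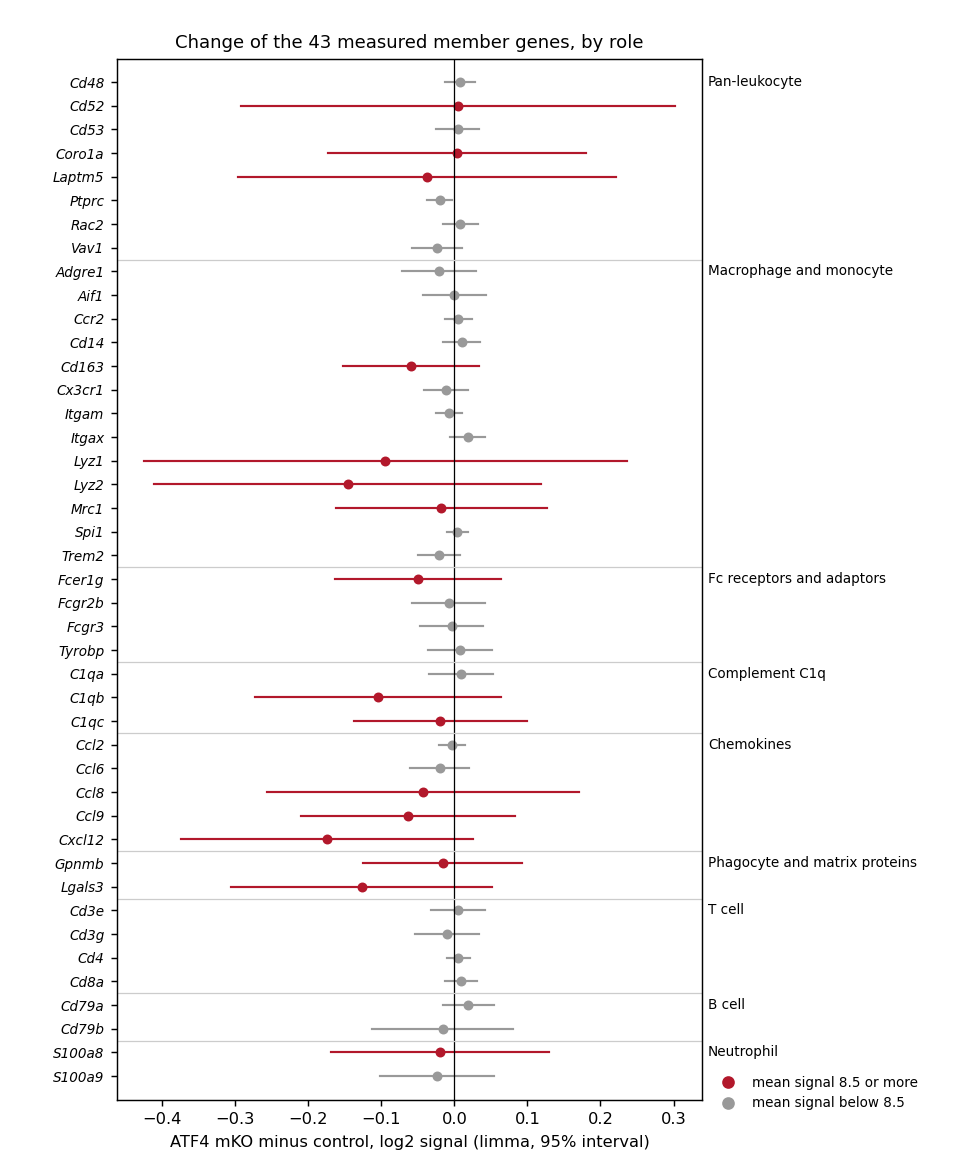
Differences of the 43 measured members (x axis, ATF4 mKO minus control in log2 signal; points, limma estimates; bars, 95% intervals), ordered by role down the page, with members at a mean signal of 8.5 or more in red and the others in grey. All intervals but that of Ptprc include 0, and the grey ones are short because their signals sit near the floor.

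Without ATF4 mKO mouse 3, all 16 brighter members were below 0, where 47.7% of genes at that level were, and their median was −0.10. That mouse was singled out on these same members and lay above the mean of the other ATF4 mKO mice for all 16. Leaving it out therefore lowers every one of the 16 differences, and members that vary together between mice are not independent. Over the 43, 34 were below 0, against 48.7% of all genes. Still 0 of 66 probes were called, where 0.136% of all were, and the smallest limma adjusted p of a member was 0.702. At the unadjusted cut-off of 0.025, 3 member probes passed, where 3.42% of all probes did. They were both brighter probes of Lyz2 (−0.24 and −0.13, limma adjusted p of 0.717 and 0.702) and the probe of C1qb (−0.17, limma adjusted p of 0.707). The mouse moved the medians and signs, and it decided no call at the adjusted threshold.

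Genes shared by all leukocytes were split by level. Laptm5, a lysosomal membrane protein of blood-derived cells, was the brightest. It had a lowest signal of 9.81, a median of 10.02 and a highest of 10.70 in ATF4 mKO mice, against 9.61, 10.16 and 10.32 in control mice, and the difference was −0.04 ± 0.12 (SE; limma adjusted p of 0.993). The groups overlapped, with only ATF4 mKO mouse 3 above the controls, and the difference was −0.13 without that mouse and −0.0014 without ATF4 mKO mouse 4. Ptprc, which encodes the leukocyte phosphatase CD45, was between 8.30 and 8.32 (median 8.31) in ATF4 mKO mice, against 8.30 to 8.36 (median 8.33) in control mice. All 8 ATF4 mKO mice were below the control mean, yet the difference of −0.02 ± 0.01 lies at the floor, its limma adjusted p was 0.834, and a second Ptprc probe differed by −0.0014. Vav1, a signalling protein of blood cells, was between 8.43 and 8.49 (median 8.45) in ATF4 mKO mice, against 8.41 to 8.52 (median 8.49) in control mice (difference −0.02 ± 0.02, limma adjusted p of 0.913). Cd52, a small surface glycoprotein of leukocytes, averaged 8.76 ± 0.35 in ATF4 mKO and 8.76 ± 0.24 in control mice (SD). Coro1a, which binds actin in leukocytes, averaged 8.87 ± 0.19 in ATF4 mKO mice and the same 8.87 ± 0.16 in control mice. Both means hide a wide spread, and without ATF4 mKO mouse 3 the differences were −0.11 for Cd52 and −0.06 for Coro1a. The tetraspanin Cd53, the surface protein Cd48 and the GTPase Rac2 were below 8.5, with differences from 0.0046 to 0.0083.

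**Figure D2:**
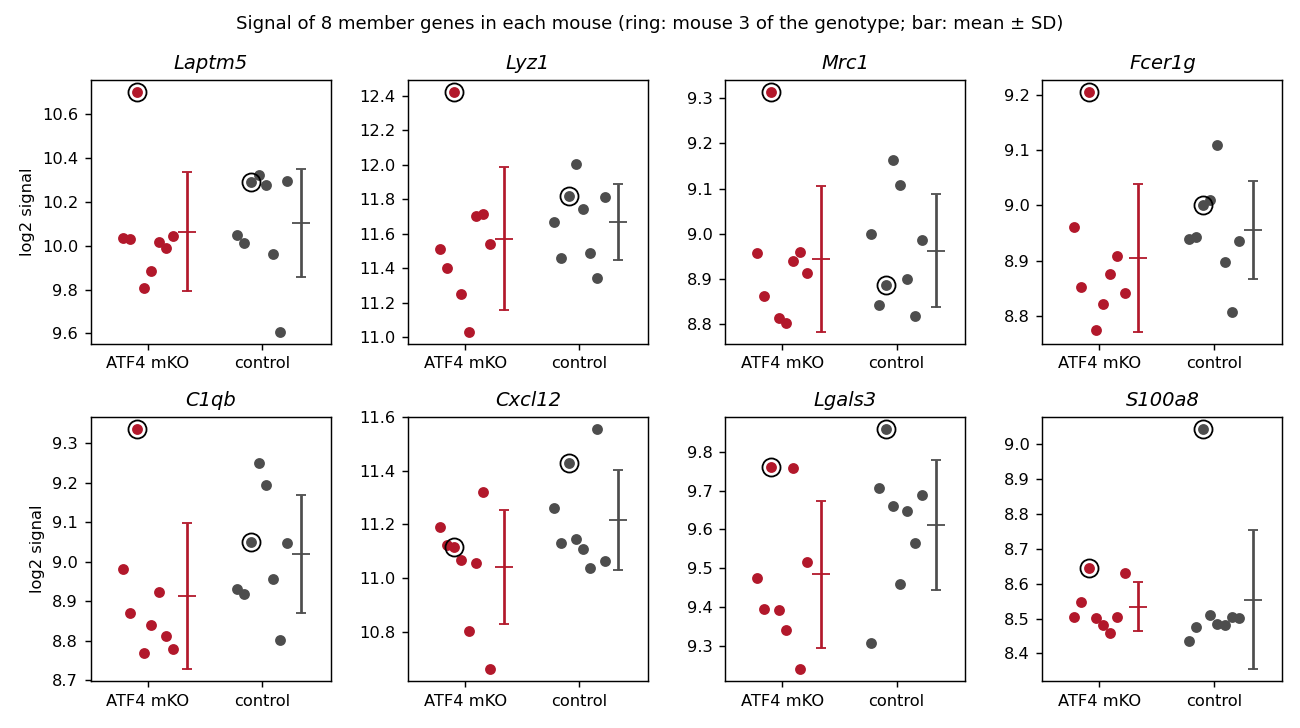
Log2 signal (y axis) of 8 members in each mouse, ATF4 mKO in red on the left and control in grey on the right, with the mean ± SD as a bar and mouse 3 of each genotype ringed. The ringed ATF4 mKO mouse is the highest of its genotype in every panel but that of Cxcl12, and the ringed control mouse stands alone for S100a8.

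Among macrophage and monocyte genes, lysozyme gave the brightest signal and the widest spread between mice. The brightest Lyz1 probe was between 11.03 and 12.42 (median 11.53) in ATF4 mKO mice, against 11.34 to 12.00 (median 11.71) in control mice. Its difference was −0.09 ± 0.16 (limma adjusted p of 0.981) and became −0.22 without ATF4 mKO mouse 3. Lyz2, the lysozyme gene of myeloid cells, averaged 9.14 ± 0.32 in ATF4 mKO and 9.29 ± 0.19 in control mice (SD), a difference of −0.15 ± 0.12. Lyz1 and Lyz2 are near-identical copies, and which of them each probe measured is uncertain. The mannose receptor Mrc1 was between 8.80 and 9.31 (median 8.93) in ATF4 mKO mice, against 8.82 to 9.16 (median 8.94) in control mice, and its difference was −0.02 ± 0.07, or −0.07 without ATF4 mKO mouse 3. Cd163, which clears haemoglobin bound to haptoglobin, averaged 8.74 ± 0.05 in ATF4 mKO and 8.80 ± 0.12 in control mice (SD), with a difference of −0.06 ± 0.04. So the receptors that mark resident macrophages overlapped between genotypes. For Mrc1, 1 ATF4 mKO mouse lay above every control and 2 lay below every control, and for Cd163 all lay within the control range. Itgax (CD11c), an integrin chain of dendritic cells and some macrophages, was between 8.32 and 8.37 (median 8.34) in ATF4 mKO mice, against 8.29 to 8.37 (median 8.32) in control mice (difference 0.02 ± 0.01, limma adjusted p of 0.902). Trem2, a lipid receptor of phagocytes, was between 8.32 and 8.37 (median 8.35) in ATF4 mKO mice, against 8.34 to 8.46 (median 8.36) in control mice (difference −0.02 ± 0.01, limma adjusted p of 0.902). Both lie at the floor, where such differences are small by construction. The remaining 7 of this role, Adgre1, Aif1, Ccr2, Cd14, Cx3cr1, Itgam and Spi1, were below 8.5 and differed by −0.02 to 0.0098. Ccr2, the monocyte receptor for Ccl2, averaged 8.32 in both genotypes.

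All 4 genes of Fc receptors and adaptors were highest in ATF4 mKO mouse 3 within its genotype. Fcer1g, the signalling chain shared by activating Fc receptors, was between 8.78 and 9.21 (median 8.86) in ATF4 mKO mice, against 8.81 to 9.11 (median 8.94) in control mice. The difference was −0.05 ± 0.05 (limma adjusted p of 0.955), and −0.09 without ATF4 mKO mouse 3. Tyrobp (DAP12), the adaptor through which Trem2 signals, was between 8.37 and 8.54 (median 8.41) in ATF4 mKO mice, against 8.36 to 8.46 (median 8.42) in control mice (difference 0.0073 ± 0.02, limma adjusted p of 0.989). ATF4 mKO mouse 3 was the only mouse above 8.5 for Tyrobp. The inhibitory receptor Fcgr2b and the activating Fcgr3 had mean signals of 8.49 and 8.44 and differences of −0.0080 and −0.0037.

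The C1q chains, joined in 1 secreted protein that starts the classical complement pathway, overlapped between genotypes. C1qb was between 8.77 and 9.34 (median 8.85) in ATF4 mKO mice, against 8.80 to 9.25 (median 9.002) in control mice, with a difference of −0.10 ± 0.08 (limma adjusted p of 0.926). Of the ATF4 mKO mice, 7 lay below the control mean and mouse 3 lay above all controls. C1qa was between 8.46 and 8.61 (median 8.48) in ATF4 mKO mice, against 8.43 to 8.52 (median 8.497) in control mice (difference 0.0089 ± 0.02, limma adjusted p of 0.988). C1qc averaged 8.82 ± 0.14 in ATF4 mKO and 8.84 ± 0.09 in control mice (SD), a difference of −0.02 ± 0.06, or −0.07 without ATF4 mKO mouse 3. Levels of different probes are not comparable, so the 3 chains are not ranked.

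Chemokine genes held the lowest difference of all members. Cxcl12, which holds leukocytes and stem cells in place and is made by stromal cells and endothelium as well, was between 10.66 and 11.32 (median 11.09) in ATF4 mKO mice, against 11.04 to 11.56 (median 11.14) in control mice. The difference of −0.17 ± 0.09 (limma adjusted p of 0.894) was the largest in size among the members and was −0.18 without ATF4 mKO mouse 3. Below the control mean were 7 of 8 ATF4 mKO mice, and 2 were below every control. Its 4 dimmer probes differed by −0.02 to 0.0068. Ccl6, a chemokine of rodent myeloid cells, was between 8.38 and 8.46 (median 8.42) in ATF4 mKO mice, against 8.39 to 8.52 (median 8.43) in control mice (difference −0.02 ± 0.02, limma adjusted p of 0.951). Ccl8, a ligand made by resident macrophages, averaged 8.64 ± 0.25 in ATF4 mKO and 8.68 ± 0.18 in control mice (SD), and its difference of −0.04 was −0.13 without ATF4 mKO mouse 3. Ccl9 averaged 8.93 ± 0.12 in ATF4 mKO and 8.99 ± 0.17 in control mice (SD), with a difference of −0.06 ± 0.07. Ccl2, the attractant of monocytes, stayed at 8.32 in ATF4 mKO and 8.33 in control mice. All 5 chemokines were below 0, with and without ATF4 mKO mouse 3, and none was called.

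Of the proteins of phagocytes and matrix, Gpnmb, a glycoprotein of lipid-laden phagocytes, was between 8.90 and 9.24 (median 9.10) in ATF4 mKO mice, against 8.98 to 9.29 (median 9.07) in control mice (difference −0.02 ± 0.05, limma adjusted p of 0.993). Lgals3 (galectin-3), a sugar-binding protein of macrophages that other cells also make, was between 9.24 and 9.76 (median 9.43) in ATF4 mKO mice, against 9.31 to 9.86 (median 9.65) in control mice. Its difference was −0.13 ± 0.08 (limma adjusted p of 0.909), with 6 of 8 ATF4 mKO mice below the control mean. Of the 8 ATF4 mKO mice, 7 lay within the range of the controls and 1 below it.

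Lymphocyte genes sat at the floor. Cd3g, a chain of the T cell receptor complex, was between 8.35 and 8.49 (median 8.37) in ATF4 mKO mice, against 8.34 to 8.44 (median 8.39) in control mice (difference −0.01 ± 0.02, limma adjusted p of 0.986). Cd4, the coreceptor of helper T cells, was between 8.30 and 8.34 (median 8.32) in ATF4 mKO mice, against 8.30 to 8.34 (median 8.31) in control mice (difference 0.0056 ± 0.0074, limma adjusted p of 0.971). Cd8a, the coreceptor of cytotoxic T cells, was between 8.29 and 8.38 (median 8.34) in ATF4 mKO mice, against 8.30 to 8.36 (median 8.33) in control mice (difference 0.0092 ± 0.01, limma adjusted p of 0.960). Together with Cd3e, which differed by 0.0053, no T cell gene left the floor in either genotype. Cd79a, a signalling chain of the B cell receptor, was between 8.32 and 8.43 (median 8.36) in ATF4 mKO mice, against 8.31 to 8.40 (median 8.35) in control mice (difference 0.02 ± 0.02, limma adjusted p of 0.944). Its partner Cd79b was between 8.32 and 8.68 (median 8.41) in ATF4 mKO mice, against 8.38 to 8.62 (median 8.42) in control mice (difference −0.02 ± 0.05, limma adjusted p of 0.989). Single mice made the range of Cd79b: ATF4 mKO mouse 3 at 8.68 and control mouse 8 at 8.62 lay clear of the other mice of their genotypes.

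The neutrophil genes S100a8 and S100a9, whose products pair as calprotectin, were set by a single control mouse. S100a8 was between 8.46 and 8.65 (median 8.51) in ATF4 mKO mice, against 8.44 to 9.04 (median 8.49) in control mice (difference −0.02 ± 0.07, limma adjusted p of 0.996). S100a9 was between 8.37 and 8.48 (median 8.40) in ATF4 mKO mice, against 8.37 to 8.69 (median 8.41) in control mice (difference −0.02 ± 0.04, limma adjusted p of 0.979). Control mouse 3 held both maxima, and the next control was at 8.51 for S100a8 and 8.42 for S100a9. The same mouse was the highest of all 16 for the haemoglobin gene Hba-a1, at 14.39, and for Alas2, an enzyme of haem synthesis in red cell precursors, at 9.32, and the part of blood in its S100a8 signal was not tested. Without control mouse 3 alone, the differences were 0.05 for S100a8 and 0.012 for S100a9. With mouse 3 of both genotypes left out, they were 0.03 for S100a8 and 0.0025 for S100a9. That second choice was made after seeing the data and also drops the ATF4 mKO mouse highest for both genes.

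Macrophage genes and the genes of lymphocytes and neutrophils were then set side by side. In the 3 macrophage roles, 14 of the 20 measured members were below 0, with a median of −0.0098, and none was called. Of the 8 lymphocyte and neutrophil members, 4 were below 0 and 4 above, with a median of −0.0025, and none was called. The median over all genes was 0.00047. All 7 macrophage members at 8.5 or more were below 0 (median −0.06), while only 1 of the 8 others, S100a8, reached that level. The difference between the lists was not tested, and the floor compresses the second list more than the first. Without ATF4 mKO mouse 3, 16 of the 20 macrophage members were below 0 (median −0.02), against 5 of the 8 lymphocyte and neutrophil members (median −0.02), and none was called. That mouse was the highest of its genotype in the mean of each of the 9 roles.

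The spread between mice was larger than the difference between genotypes. Genotype held a median of 1.71% of the variance of the 16 brighter members, and at most 17.8%, for Cxcl12. ATF4 mKO mouse 3 alone gave a median of 46.0% of the squared deviations from the genotype means, where an even share of 16 mice would be 6.25%. Deviations from the genotype means were largely shared. Their first principal component, the single pattern over mice that holds most variance, held 69.9% over the 16 brighter members and 90.8% over the 7 macrophage members. It held 49.4% and 82.6% without ATF4 mKO mouse 3, and 82.3% and 95.04% in the 8 ATF4 mKO mice alone, against 55.4% and 84.0% in the 8 control mice alone. Genes with a wide spread weigh most in this component. Of the 7 macrophage members, Lyz1 (SD 0.41 in ATF4 mKO and 0.22 in control mice) and Lyz2 (0.32 and 0.19) spread most. The shares therefore do not show that all 7 vary alike, and Cd163 followed the others less. Control mice also shared a pattern over the 16 brighter members. Control mouse 7 was the lowest control for 11 of the 16, where it was lowest for 18.8% of genes at that level. Control mouse 4 was the highest control for 7 of the 16, and its share over all genes was not computed.

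**Figure D3:**
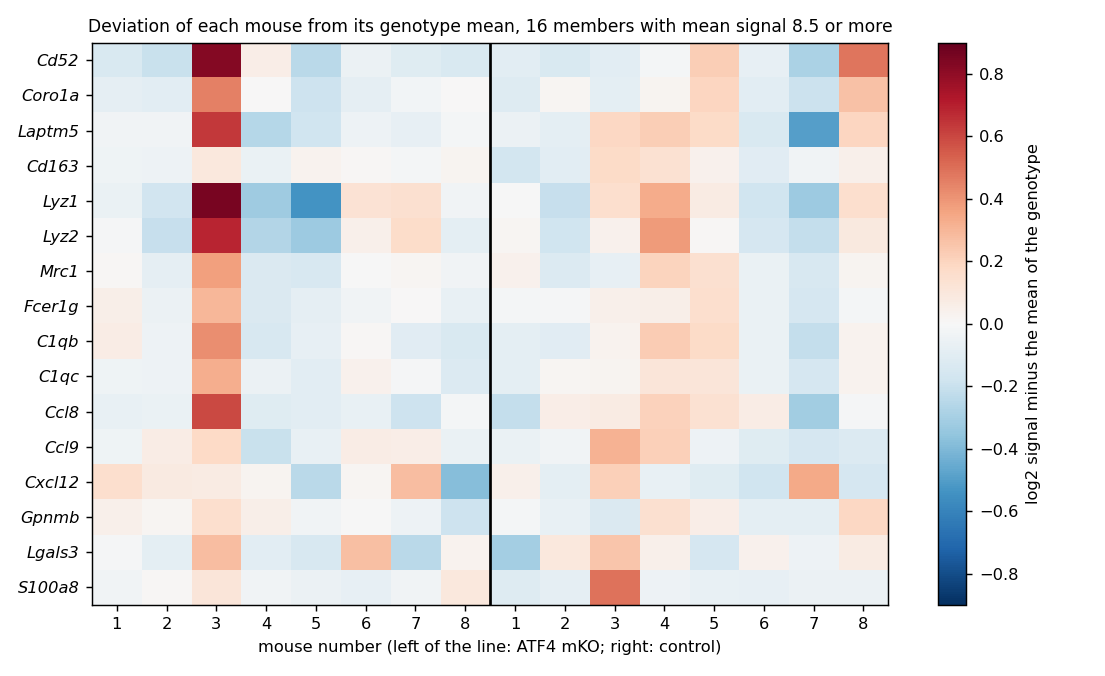
Deviation of each mouse (columns; ATF4 mKO left of the line, control right of it) from its genotype mean in log2 signal (colour), for the 16 members at a mean signal of 8.5 or more (one to a line). The column of ATF4 mKO mouse 3 is red for all 16 members, control mouse 7 is blue for most, and control mouse 3 is darkest red for S100a8.

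Members differed in how closely they followed the other macrophage genes. Each gene was set against the mean of the other macrophage members at 8.5 or more, the gene itself left out. For Lyz1 and Lyz2, both lysozyme genes were left out. Within genotype, this mean accounted for 87.3% of the variance of Mrc1, 85.5% for Laptm5, 82.7% for C1qb, 82.0% for C1qc, 80.4% for Fcer1g, 80.1% for Lyz2 and 79.3% for Lyz1. Ccl8 followed with 69.3%, Coro1a with 61.2% and Cd52 with 60.5%. Ccl9 (42.7%), Gpnmb (33.5%), Cd163 (28.5%) and Lgals3 (21.6%) followed less, and S100a8 (6.98%) and Cxcl12 (0.732%) hardly at all. These shares are descriptions over 16 mice, with all genes of a mouse read on the same array and 1 mouse far from the rest. The median over the 16 members was 65.2%, and 37.1% without ATF4 mKO mouse 3. For the 7 macrophage members it was 80.4%, and 58.4% without that mouse.

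The part of each genotype difference that followed the other macrophage members was then subtracted. With all 16 mice the median difference of the 16 members was −0.05 before and 0.0043 after, and 8 of 16 were below 0 after. Without ATF4 mKO mouse 3 it was −0.10 before and −0.0096 after, with 10 of 16 below 0 after. Cxcl12 kept −0.17 of its −0.17 and Lgals3 −0.09 of its −0.13, whereas Lyz1 had −0.09 before and 0.03 after, and C1qb −0.10 before and −0.04 after. Since the subtracted mean was itself lower in ATF4 mKO than in control mice, this removes a genotype difference in it along with variation between mice, and the 2 cannot be told apart. A limma fit with the mean of 46 further macrophage genes, none of them members, as a covariate called 0 of the 66 member probes, where 0.132% of all probes were called. In that fit 8 of the 16 brighter members were below 0, where 48.0% of genes at that level were, and their median was −0.0019. The covariate averaged 8.421 in ATF4 mKO and 8.427 in control mice, and only 5 of its 46 genes were at 8.5 or more. So this fit, too, can remove a genotype difference along with variation between mice. The same fit without ATF4 mKO mouse 3 called 0 of 66, where 0.0739% of all probes were called, and 9 of the 16 were below 0, where 48.4% of genes at that level were, with a median of −0.0091.

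**Figure D4:**
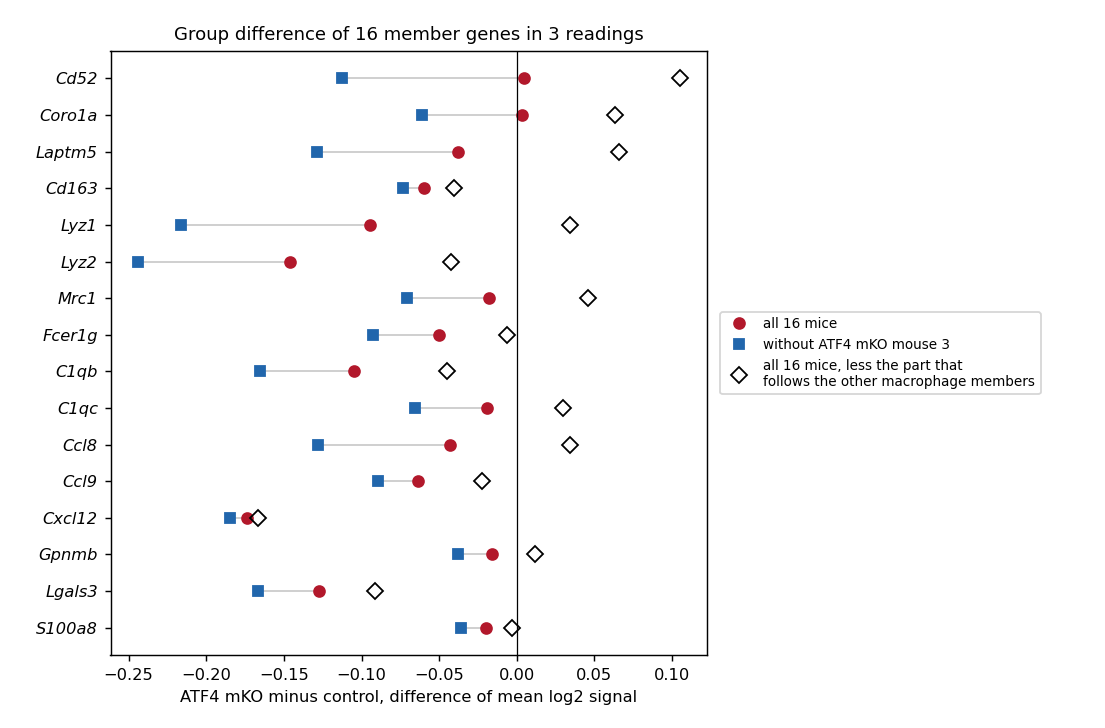
Difference between genotypes (x axis, ATF4 mKO minus control in log2 signal) of the 16 brighter members (one to a line) with all 16 mice (red circles), without ATF4 mKO mouse 3 (blue squares), and with all mice after the part that follows the other macrophage members was subtracted (open diamonds). Squares lie left of 0 for all 16, circles for 14 and diamonds for 8, and the 3 marks lie closest together for Cxcl12.

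Single genes were related to Mrc1 over the 8 mice of each genotype, in 24 relations with two-sided exact permutation tests over 40320 pairings. In ATF4 mKO mice Fcer1g followed Mrc1 with Pearson's r of 0.977 (exact p of 0.000397, adjusted 0.00774) and Spearman's rho of 0.929 (exact p of 0.00223, adjusted 0.0268). Without the 2 mice farthest from the median of Mrc1, mice 3 and 5, r was 0.886. In control mice Fcer1g had an r of 0.718 (exact p of 0.0412, adjusted 0.151) and a rho of 0.619 (exact p of 0.115, adjusted 0.307), with r of 0.428 without mice 4 and 5. Laptm5 in ATF4 mKO mice had an r of 0.971 (exact p of 0.00503, adjusted 0.0302) but a rho of 0.619 (exact p of 0.115, adjusted 0.307), and r was 0.721 without the same mice. Its r in control mice was 0.692 (exact p of 0.0504, adjusted 0.151), with a rho of 0.690 (exact p of 0.0694, adjusted 0.307) and an r of 0.603 without mice 4 and 5. C1qb in ATF4 mKO mice had an r of 0.923 (exact p of 0.0168, adjusted 0.0806) and a rho of 0.571 (exact p of 0.151, adjusted 0.342), with r of 0.541 without mice 3 and 5. In control mice C1qb had an r of 0.882 (exact p of 0.00412, adjusted 0.0302) and a rho of 0.786 (exact p of 0.0279, adjusted 0.223), and r was 0.557 without control mice 4 and 5. Leaving out the 2 mice farthest on Mrc1 narrows its range, which by itself tends to lower r in all these relations. Cxcl12 and S100a8 had r of 0.293 and 0.621 in ATF4 mKO mice and −0.464 and −0.233 in control mice, and none of these 4 passed (lowest exact p of 0.108, adjusted 0.199; rho of 0.548, 0.476, −0.333 and −0.0238). Adipoq, the adipocyte hormone adiponectin and no member, had an r of 0.692 with Mrc1 in ATF4 mKO mice (exact p of 0.0498, adjusted 0.151), a rho of 0.548 (exact p of 0.171, adjusted 0.342), and an r of 0.230 without mice 3 and 5. In control mice its r was 0.932 (exact p of 0.000645, adjusted 0.00774) and its rho 0.952 (exact p of 0.00114, adjusted 0.0268), and r was 0.893 without mice 4 and 5. The difference between the genotypes in these relations was not tested, and a part of fat tissue in the samples was not tested.

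**Figure D5:**
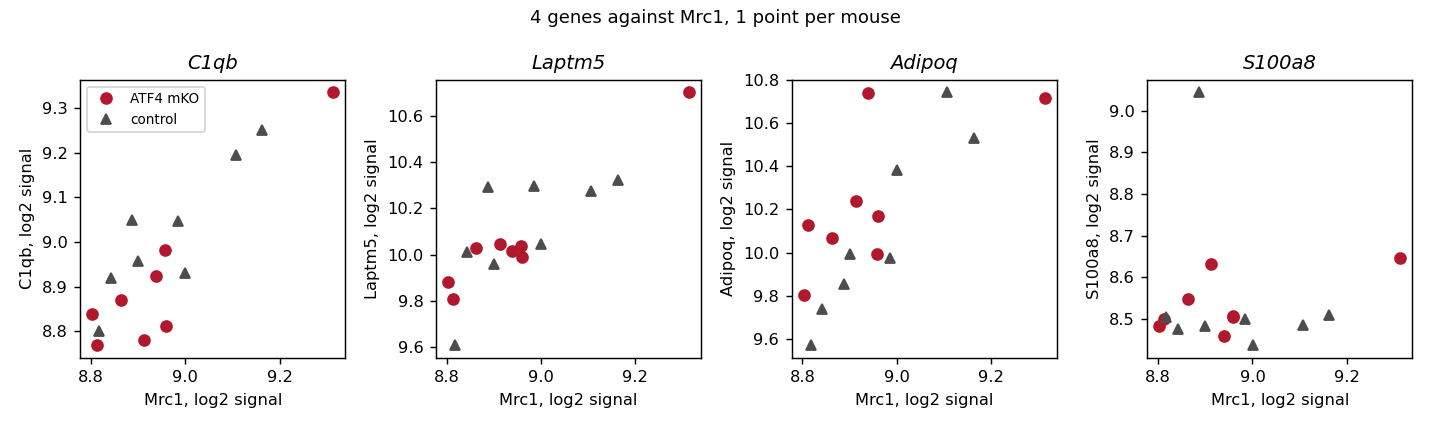
Log2 signals of C1qb, Laptm5, Adipoq and S100a8 (y axes) against that of Mrc1 (x axes), 1 point per mouse, ATF4 mKO as red circles and control as grey triangles. The ATF4 mKO mouse at the far right, at 9.31 for Mrc1, is mouse 3, and the control mouse at 9.04 for S100a8 lies among the lower ones for Mrc1.

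Further genes of the same cells, none of them members, were read in the same way, and none was called. Of 46 measured further macrophage genes, 5 were at 8.5 or more, 24 were below 0 and 22 above, where 48.6% of all genes were below 0. At the unadjusted cut-off of 0.025, 4 of the 46 passed, where 2.98% of all probes did. Without ATF4 mKO mouse 3, 31 were below 0 and 3 passed. Those with the smallest p were Vsig4, a complement receptor of resident macrophages (8.36 ± 0.02 in ATF4 mKO and 8.38 ± 0.01 in control mice, SD; limma adjusted p of 0.695), Cd300a, an inhibitory receptor (limma adjusted p of 0.760), and C5ar1, the receptor of complement C5a (limma adjusted p of 0.808). All 3 lay at the floor, with differences of −0.03, −0.02 and −0.02. Slc11a1, which also passed the unadjusted cut-off, lay above the floor and had the largest difference in size of this list. It was 9.19 ± 0.06 in ATF4 mKO and 9.27 ± 0.08 in control mice (SD), a difference of −0.08 ± 0.03 (limma adjusted p of 0.834). Of 24 further lymphocyte and natural killer genes, 12 were below 0 and 12 above, and the smallest limma p was that of Prf1 (perforin, difference −0.05 ± 0.02, adjusted 0.894), followed by Cd22 (−0.02) and Cd2 (−0.01). None of the 24 passed the unadjusted cut-off, with or without ATF4 mKO mouse 3, and without it 17 were below 0. Of 23 further neutrophil and mast cell genes, 16 were below 0 and 7 above, led by the collagenase Mmp8 (0.01 ± 0.0052, limma adjusted p of 0.834), the growth factor receptor Csf3r (−0.02) and Ms4a2 (−0.02), a chain of the IgE receptor. Only Mmp8 passed the unadjusted cut-off among these 23. Without ATF4 mKO mouse 3, 15 were below 0 and 1 passed. In all 3 lists ATF4 mKO mouse 3 had the highest mean of its genotype.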

How the data were processed

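RNA of whole quadriceps femoris was hybridised to Illumina MouseRef-8 arrays, 1 array per mouse, and extracted in BeadStudio. The authors deposited log2 signals per probe in 1 table, and these were used as given. Their normalization was not given in the sources used here. Genotype and mouse number came from the labels. Of 25697 probes, 23978 had 1 gene symbol and 1719 none.

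The members and all lists were chosen with earlier results of these data known. ATF4 mKO minus control was fitted with lmFit and eBayes over all probes and 16 arrays (limma 3.58.1, R 4.3.3, two-sided, Benjamini-Hochberg over all probes, with calls made at an adjusted p up to 0.1). The fit was tested on simulated data. A gene was read from its brightest probe. Of 23 other member probes, 11 had another sign, with differences of −0.0062 to 0.02. Signals were called bright at a mean of 8.5 or more. Relations used exact permutation tests (Python 3.11.15, SciPy 1.17.1). Errors of differences are SE.

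Values per mouse are given for the brightest gene of each role and the 2 with the smallest unadjusted p, and for other lists up to 3 genes with the smallest p. Other members with mean values, and the further macrophage gene Slc11a1, were chosen for the text after their values were seen. Alternatives were other scalings, probe summaries, variance priors, array weights, a replicate block, and mice left out. Slide as a block was not run, since no source used here gives the slide. No detection values were used. The number of arrays limits the precision.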

Additional observations from a re-analysis of the deposited data

Results flagged for a closer look

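In each genotype, the 21 members with values per mouse were searched for a mouse whose gap to the next, divided by the range of the 8 mice, was above Dixon's 95% limit for 8 values. Of 42 such groups 10 had one. The limit is passed by chance in about 1 in 20 groups where values are normal and groups independent. Many of these genes lie near the floor and vary together over the same mice, so the count is no measure of an excess over chance. ATF4 mKO mouse 3 was the highest mouse in 6 of the 10, with a gap share of 0.737 for Laptm5, 0.625 for C1qb, 0.613 for Cd3g, 0.595 for Tyrobp, 0.571 for Fcer1g and 0.543 for Cd79b. Since these genes vary together between mice, the 6 are not independent of each other. In control mice, mouse 3 was the highest for S100a8 (gap share 0.881, 9.04 against 8.51 in the next mouse) and for S100a9 (0.838, 8.69 against 8.42). Control mouse 6 was the highest for Trem2 (0.743, 8.46 against 8.37), and control mouse 8 for Cd79b (0.630, 8.62 against 8.47).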

How the results depend on the processing

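Under 29 other settings, 0 member probes were called, and the lowest adjusted p of a member was 0.656, without control mouse 6. The count of member probes at an unadjusted p of 0.025 was 1, and it was 0 with array weights, with the brighter part of the probes, with the macrophage covariate (also without ATF4 mKO mouse 3), with a gene's probes averaged, and without control mice 3 and 7. Leaving out 1 mouse gave 0 to 3. Members below 0 numbered 28, 18 with the covariate, 20 with it and without ATF4 mKO mouse 3, and 24 (without control mouse 4) to 34 (without ATF4 mKO mouse 3) with 1 mouse left out. Members above 0 numbered 15, 25 with the covariate, 23 with it and without ATF4 mKO mouse 3, 6 of 29 with the brighter part of the probes, and 9 to 19 with 1 mouse left out. The macrophage median of −0.0098 was −0.071 with background subtracted on the linear scale, which widens changes near the floor, 0.0054 with the covariate (0.0039 without ATF4 mKO mouse 3), and −0.02 (without ATF4 mKO mouse 3) to −0.0029 (without control mouse 4) with 1 mouse left out. The lymphocyte and neutrophil median of −0.0025 was 0.03 with background subtracted, 0.0077 with the covariate (−0.0070 without ATF4 mKO mouse 3), and −0.02 (without ATF4 mKO mouse 3) to 0.0074 (without control mouse 8) with 1 mouse left out. Of 21 members with values per mouse, 8 changed sign under some setting. A replicate block on mouse number left 16 calls over all probes instead of 35, 0 of them members (lowest adjusted p 0.715). Deviations of mice with the same number correlated between −0.225 and 0.239. These values showed no pairing by number, but weak correlations cannot exclude that the numbers pair littermates. Leaving out mouse 3 of both genotypes, and the covariate without ATF4 mKO mouse 3, were chosen after seeing the data. Signals near the floor limit 27 of the 43 members.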

Other observations

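Other cell types of muscle, described by lists of 6 genes or fewer, were also read by genotype, and no gene of these lists was called by limma at an adjusted p of 0.1. All 3 measured erythroid genes were below 0, with a median of −0.14, or −0.17 without ATF4 mKO mouse 3. Hba-a1 was 12.73 ± 0.48 in ATF4 mKO and 13.17 ± 0.53 in control mice (SD, n = 8 each), with a difference of −0.44 ± 0.24 (SE; limma adjusted p of 0.894). Without ATF4 mKO mouse 3, 1 of the 3 erythroid genes passed an unadjusted p of 0.025, where 3.42% of all probes did. All 6 endothelial genes were below 0 (5 without ATF4 mKO mouse 3), with a median of −0.04, and their mean was 9.02 ± 0.06 in ATF4 mKO and 9.06 ± 0.05 in control mice (SD, n = 8 each). All 6 slow fibre genes were below 0 as well, with a median of −0.20. Of the 6 fibroblast genes 5 were below 0 (median −0.03), and control mouse 3 had the lowest fibroblast mean of all mice, at 9.38, beside the highest erythroid mean, at 10.71. Of the 5 measured adipocyte genes, 4 were above 0. Adipoq was between 9.81 and 10.74 in ATF4 mKO mice, against 9.57 to 10.74 in control mice.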
